A study of Mus musculus with 8 samples.

Results

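Iron and heme handling was followed through 9 genes in the epididymal fat of 8 mice: Hmox1, Slc40a1, Slc11a1, Slc11a2, Tfrc, Fth1, Ftl1, Cp and Trf. The genes were listed by name, and a probe set was taken where the probe annotation pairs it with a single symbol from that list. The rule found 24 of the 45101 probe sets on the array, and they stood for 7 of the 9 genes, out of 18194 genes that have such a probe set. Ftl1 and Trf occur here only on probe sets that carry several gene symbols, so neither has a value. Of the 24 probe sets, 3 are array controls for Tfrc and 18 of the other 21 were bright enough to be tested, at least 1 for each of the 7 genes. Both chow arrays of each of the 7 genes lay above 40.5, the signal at which that brightness filter fell. None of the 7 thus passed it only through the high-fat-fed mice. The calls still depended on it: in the untreated high-fat diet against chow, 2 of the 7 were called with the filter and 0 without.

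All mice were male C57BL/6J, received at 6 weeks of age, with 2 mice in each of 4 groups and 1 array per mouse. The chow group ate a diet with 10% of its calories from fat, and the other 3 groups a high-fat diet (HFD) with 30%, for 24 weeks. For the next 5 weeks the HFD mice received no drug (HFD), telmisartan or candesartan, each drug given in the drinking water at about 3 mg/kg/day. No such period is recorded for the chow mice, so whether their age at sampling matched that of the others is not known. Both drugs are blockers of the angiotensin II type 1 receptor. The tissue is whole fat pad, so each value mixes adipocytes with macrophages, vessels and stroma, and fewer cells of a type cannot be told apart from less RNA per cell. C57BL/6 mice are known to carry an inactive allele of Slc11a1, so its mRNA level here says nothing of transport by its protein.

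Cells take up iron bound to transferrin (Trf) through the transferrin receptor (Tfrc), and move it from endosomes to the cytosol with Slc11a2, also known as DMT1. Iron that is not used is stored in ferritin, made of heavy (Fth1) and light (Ftl1) chains, or leaves through ferroportin (Slc40a1), after which ferroxidases such as ceruloplasmin (Cp) load it onto transferrin. Macrophages also gain iron by engulfing cells: heme oxygenase 1 (Hmox1) opens the heme ring and frees its iron, and Slc11a1, also known as NRAMP1, moves divalent metals across the phagosome membrane. Resident macrophages of fat include cells with a high iron content. The iron regulatory proteins, which bind ferritin and transferrin receptor mRNA, set much of the balance after transcription. An array sees of this only what changes the level of an mRNA.

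In the gene table of build GRCm38.p6, Hmox1 lies on chromosome 8 from 75093618 to 75100593, Slc40a1 on chromosome 1 from 45908070 to 45926532, and Slc11a1 on chromosome 1 from 74375014 to 74386057. Slc11a2 lies on chromosome 15 from 100387898 to 100424209, Tfrc on chromosome 16 from 32608896 to 32632794, Fth1 on chromosome 19 from 9980600 to 9985111, and Cp on chromosome 3 from 19956933 to 20009750. Ftl1 lies on chromosome 7 from 45457944 to 45459886 and Trf on chromosome 9 from 103208876 to 103230286.

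Promoter windows from RefSeq (GRCm38.p6), each from 250 bases before to 50 bases after a gene start, covered 5 of the 9 genes with 8 windows: Slc11a1, Tfrc, Fth1, Ftl1 and Cp. The 3 sites below come from the only 2 of these genes whose level changed with diet, both on the plus strand, and capitals mark the motif. The motifs were searched on both strands, and a match describes letters, not binding.
Slc11a1, GAGGAA, the core bound by the myeloid factor PU.1, chr1:74375041-74375066: gtatccaggaGAGGAAcgaaggtcaa
Slc11a1, TGANNNNGC, the antioxidant response element core bound by NRF2 and BACH1, chr1:74375141-74375169: tgtgaaattgTGAGCATGCcctcagtgat
Tfrc, TGACGT, the core bound by CREB and ATF factors, chr16:32608899-32608924: cggaaggaagTGACGTagatccagag
The GAGGAA match began at position -152 and the TGANNNNGC match at -52 from the Slc11a1 start. These motifs are common: GAGGAA occurred in 28.3% of the 32851 windows of all genes, TGANNNNGC in 41.3% and TGACGT in 7.51%. The Tfrc match fell in the windows of 2 alternative starts, at position 14 after the one and at -213 before the other. Of the 3 other motifs searched, the GC box GGGCGG (35.7% of all windows) occurred 2 times in a Tfrc window, 3 times in an Fth1 window and 1 time in the Ftl1 window. The TATA box TATAAA (13.6%) occurred 2 times in a Cp window, 1 time in an Fth1 window and 1 time in the Ftl1 window, and the E-box CACGTG (7.15%) in none of the 8.

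The mean signal of an array, trimmed by 2% at each end, was 178 to 265 before scaling to a common level. The signals below are linear and scaled, and compare 1 probe set between arrays, not a gene with another gene. Differences are log2 differences of group means, tested with limma over 11232 genes with 4 residual degrees of freedom. Calls were made at an adjusted p (Benjamini-Hochberg) under 0.05. The spread between the mice of a group was narrowest in HFD (SD of the log2 difference over all genes 0.273) and widest with telmisartan (0.484). With 2 mice against 2, the smallest p of an exact permutation test is 0.333, so whether arrays overlap is a description. All 10 adipocyte markers tested were above the floor on all 8 arrays, with a mean log2 signal of 12.08 to 12.55. Single markers did move: in HFD against chow 2 of the 10 were called lower and 0 higher, against 2.95% and 5.15% of all genes. Their log2 differences ran from -1.70 to 0.55, with a median of -0.065. The epididymis and testis list had 0 of 7 genes bright enough to test. Markers of macrophages rose with the diet: 13 of the 14 tested were called higher in HFD than in chow, against 5.15% of all genes. The summed signal of the 14 was 22163 and 24486 in chow and 48580 to 69271 in the other 6 mice.

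HFD against chow asks how the diet moved these genes. Hmox1 and Slc11a1 rose 2.53-fold and 3.08-fold, Tfrc was lower without passing the test, and the levels of Fth1 and Cp hardly moved. Of the 7 genes, 2 were called, both higher, against 8.09% of all genes called in either direction, 5.15% higher and 2.95% lower. The arrays of the 2 groups did not overlap for 4 of the 7, against 58.1% of all genes. With all 3 high-fat-fed groups set against chow, 3 of the 7 were called (2 higher, 1 lower), against 13.5% of all genes, 7.59% higher and 5.88% lower. With each probe set as its own feature, 4.88% of 22519 were called in HFD and 9.41% over the 3 groups. The arrays did not overlap for those 3 genes, against 29.9% of all genes. The median log2 difference of the 7 was 0.047 in that comparison, beside -0.025 over all genes.

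**Figure D1:**
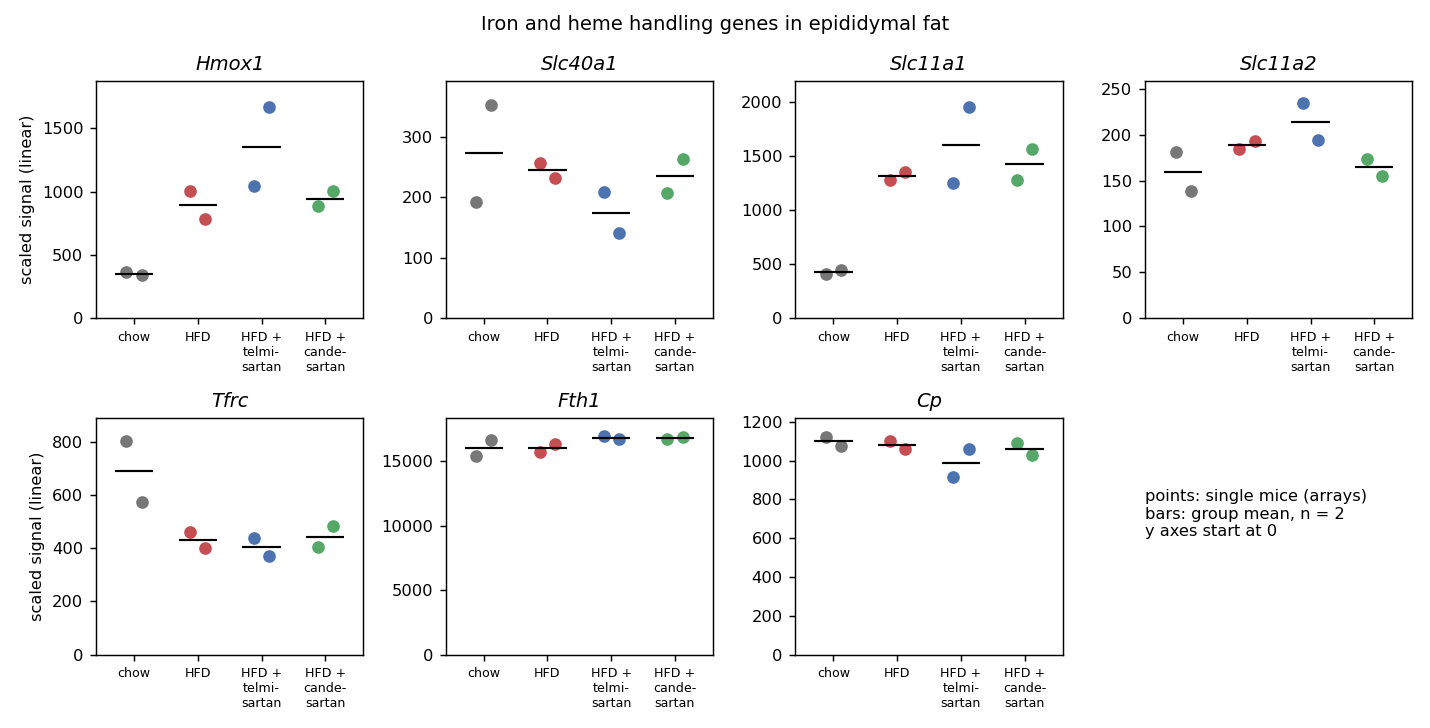
Scaled linear signal (y axes, from 0) of the 7 measured genes in each of the 4 groups (x axes), 1 panel per gene, with 1 point per mouse and a bar at the mean of the 2 mice. Hmox1 and Slc11a1 lie higher in all 6 high-fat-fed mice than in both chow mice, Tfrc lies lower, and Fth1 spans 15376 to 16917.

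Heme breakdown was represented by Hmox1, the inducible heme oxygenase, measured by 1 probe set. Its signal was 361 and 340 in the chow mice, 1006 and 780 in the HFD mice, 1043 and 1670 with telmisartan, and 884 and 1002 with candesartan. All 6 high-fat-fed mice lay above both chow mice, and telmisartan mouse 2 was the highest. The rise in HFD was 1.34 ± 0.23 on the log2 scale (SE, n = 2 against 2, 95% confidence interval 0.82 to 1.85, adjusted p 0.0107). Over the 3 high-fat-fed groups it was 1.56 ± 0.18 (SE, 95% confidence interval 1.14 to 1.98, adjusted p 0.00136). Against chow, the telmisartan group differed by 1.91 (adjusted p 0.00262) and the candesartan group by 1.43 (adjusted p 0.00895), and these comparisons share the chow mice. The call in HFD ended without HFD mouse 1 (1.15, adjusted p 0.110), without HFD mouse 2 (1.52, adjusted p 0.0517) and with no filter on dim probe sets (adjusted p 0.0906). The call with candesartan ended without candesartan mouse 1 (adjusted p 0.0521), without candesartan mouse 2 (adjusted p 0.109) and with no filter (adjusted p 0.0871).

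Slc11a1, the metal transporter of phagosomes, is known to be expressed mainly in myeloid cells. Its signal was 404 and 447 in chow, 1276 and 1346 in HFD, 1249 and 1952 with telmisartan, and 1280 and 1560 with candesartan. The gap between the diets was wider than the spread within any group, and telmisartan mouse 2 was again the highest. The rise in HFD was 1.62 ± 0.21 (SE, n = 2 against 2, 95% confidence interval 1.15 to 2.10, adjusted p 0.00325). The rise over the 3 high-fat-fed groups was 1.75 (95% confidence interval 1.36 to 2.13, adjusted p 0.000506), and it was 1.88 for telmisartan and 1.73 for candesartan against chow (adjusted p 0.00207 and 0.00248). The call in HFD held without each of the 8 mice in turn, and was lost with no filter on dim probe sets (adjusted p 0.0564), as was that with candesartan (adjusted p 0.0552).

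Both genes moved with the macrophage markers. The mean of the 14 macrophage genes, relative to its mean in chow, was 1.53 in both HFD mice, 1.24 and 1.93 with telmisartan, and 1.38 and 1.59 with candesartan, on the log2 scale. Less that shift, Slc11a1 stood at 0.052 and 0.13 in HFD, 0.31 and 0.27 with telmisartan, and 0.21 and 0.29 with candesartan. Hmox1 less the same shift stood at -0.013 and -0.38 in HFD, 0.33 and 0.32 with telmisartan, and -0.049 and -0.073 with candesartan. Slc11a1 thus rose by about as much as the markers did, and Hmox1 lay above them in both telmisartan mice and at or below them in the other 4 high-fat-fed mice. The part of macrophage number in these rises was not tested.

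**Figure D2:**
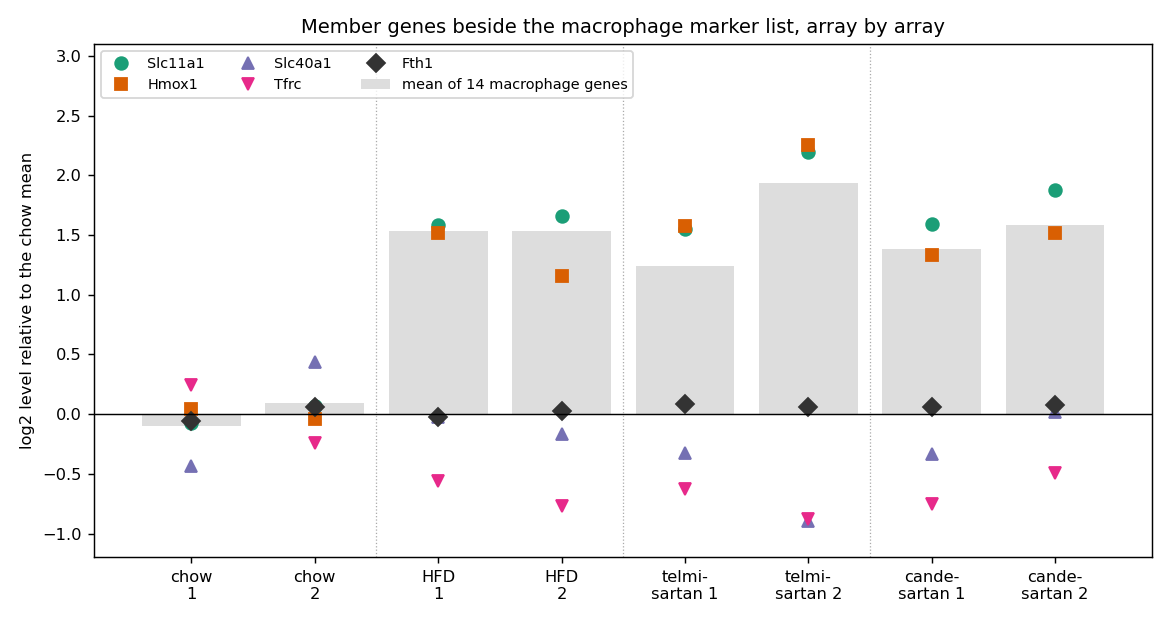
Log2 level of 5 genes relative to their own chow mean (points) on each of the 8 arrays (x axis), with the mean of 14 macrophage genes on the same scale as grey bars. Slc11a1 and Hmox1 follow the bars, Fth1 stays near 0, and Slc40a1 and Tfrc lie at -2.83 to -1.55 from the bars on the 6 high-fat arrays.

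Slc11a2, the proton-coupled iron transporter of endosomes, was tested with 3 of its 4 probe sets, and the other was too dim. The brightest gave 181 and 139 in chow, 185 and 193 in HFD, 235 and 194 with telmisartan, and 174 and 155 with candesartan. The HFD mice lay above both chow mice by a small margin (0.25, 95% confidence interval -0.18 to 0.69, adjusted p 0.463). The second probe set gave 0.36 in HFD (adjusted p 0.344) and the third -0.085 (adjusted p 0.900), so the probe sets disagreed in sign. The dim probe set read 8.5 to 33.0 over the 8 arrays.

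Iron export was represented by Slc40a1, the only known exporter of iron from vertebrate cells. Its brighter probe set gave 193 and 353 in chow, 257 and 232 in HFD, 208 and 140 with telmisartan, and 207 and 264 with candesartan. The chow mice lay on both sides of the HFD mice, and the difference was -0.093 (95% confidence interval -0.78 to 0.60, adjusted p 0.892). The dimmer probe set gave 60.3 and 90.2 in chow, 98.6 and 100 in HFD, 87.9 and 78.9 with telmisartan, and 75.7 and 77.7 with candesartan. It differed by 0.43 in HFD (adjusted p 0.396), so the 2 probe sets disagreed in sign for the diet. Although ferroportin is abundant in iron-recycling macrophages, neither probe set was called in HFD or over the 3 groups, and the brighter one stood at -2.83 to -1.55 from the macrophage shift in the high-fat-fed mice.

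Cp, the copper ferroxidase that works with ferroportin, had 8 probe sets, of which 7 were tested. The brightest gave 1120 and 1077 in chow, 1099 and 1059 in HFD, 914 and 1062 with telmisartan, and 1092 and 1031 with candesartan. It differed by -0.025 in HFD (95% confidence interval -0.32 to 0.27, adjusted p 0.930), and the mice of all groups but telmisartan lay between 1031 and 1120. Another probe set gave 595 and 646 in chow, 507 and 488 in HFD, 368 and 481 with telmisartan, and 543 and 527 with candesartan. It had the lowest estimate of the 7 in HFD (-0.32, adjusted p 0.312), where 6 estimates were below 0 and 1 above. None was called, and over the 3 high-fat-fed groups they ran from -0.36 to 0.0012 (lowest adjusted p 0.125).

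Iron uptake was represented by Tfrc, the receptor for iron-loaded transferrin. Its brightest probe set gave 803 and 575 in chow, 462 and 400 in HFD, 440 and 371 with telmisartan, and 403 and 483 with candesartan. Both chow mice lay above all 6 high-fat-fed mice. The difference in HFD alone was -0.66 (95% confidence interval -1.11 to -0.21, adjusted p 0.0796), and over the 3 high-fat-fed groups Tfrc fell by 0.68 on the log2 scale (95% confidence interval -1.05 to -0.31, adjusted p 0.0265). The telmisartan group differed from chow by -0.75 (adjusted p 0.0525) and the candesartan group by -0.62 (adjusted p 0.107). The former was called in 5 of 21 alternative settings: the signal as deposited (-1.10, adjusted p 0.0165), a filter at the 70th percentile (adjusted p 0.0470), the replicate block (adjusted p 0.0390), without chow mouse 2 (adjusted p 0.0388) and without telmisartan mouse 1 (adjusted p 0.0395).

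The second Tfrc probe set gave 145 and 115 in chow, 97.4 and 53.3 in HFD, 90.7 and 58.9 with telmisartan, and 54.8 and 62.2 with candesartan. It also separated chow from all other mice, with -0.94 over the 3 high-fat-fed groups (adjusted p 0.0765 among probe sets). The array control at the 3' end of the transcript gave 93.4 and 58.1 in chow and 31.5 to 65.1 in the others, so those groups overlapped. The control at the 5' end gave 34.4 and 23.7 against 14.7 to 20.4, without overlap. The middle control gave 22.4 and 14.3 against 4.97 to 16.2, and the dim, untested probe set 42.3 and 20.5 against 3.41 to 33.9, both with overlap. The call over the 3 groups rested on single mice: it ended without chow mouse 1 (-0.44, adjusted p 0.185), HFD mouse 1 (adjusted p 0.0551), HFD mouse 2 (adjusted p 0.0749) or candesartan mouse 1 (adjusted p 0.0673), as it did with median centring (-0.64, adjusted p 0.116) and with no filter (adjusted p 0.101). In HFD alone the difference was called only without chow mouse 2 (-0.90, adjusted p 0.0472). Vessel markers were lower beside Tfrc: 8 of 8 endothelial genes were called lower over the 3 groups, against 5.88% of all genes. Their summed signals were 7447 and 6180 in chow and 3772 to 4622 in the others, and their part in the result was not tested.

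Iron storage was represented by Fth1, whose heavy chain carries the ferroxidase site of ferritin. Its main probe set gave 15376 and 16631 in chow, 15689 and 16308 in HFD, 16917 and 16677 with telmisartan, and 16692 and 16842 with candesartan. The difference in HFD was 0.00035 (95% confidence interval -0.20 to 0.20, adjusted p 0.998), while the macrophage markers beside it rose, and Fth1 stood at -1.87 to -1.16 from their shift in the high-fat-fed mice. The second probe set gave 12061 and 13202 in chow, 13366 and 15024 in HFD, 15411 and 16599 with telmisartan, and 13941 and 14041 with candesartan. It placed all 6 high-fat-fed mice above both chow mice by a small amount (0.22, adjusted p 0.125 among probe sets). Only 13 probe sets on the array had a higher mean signal than the main one, and 35 than the second, with the highest signal on any array at 24400. Whether signals this high still follow the amount of RNA in proportion was not tested.

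**Figure D3:**
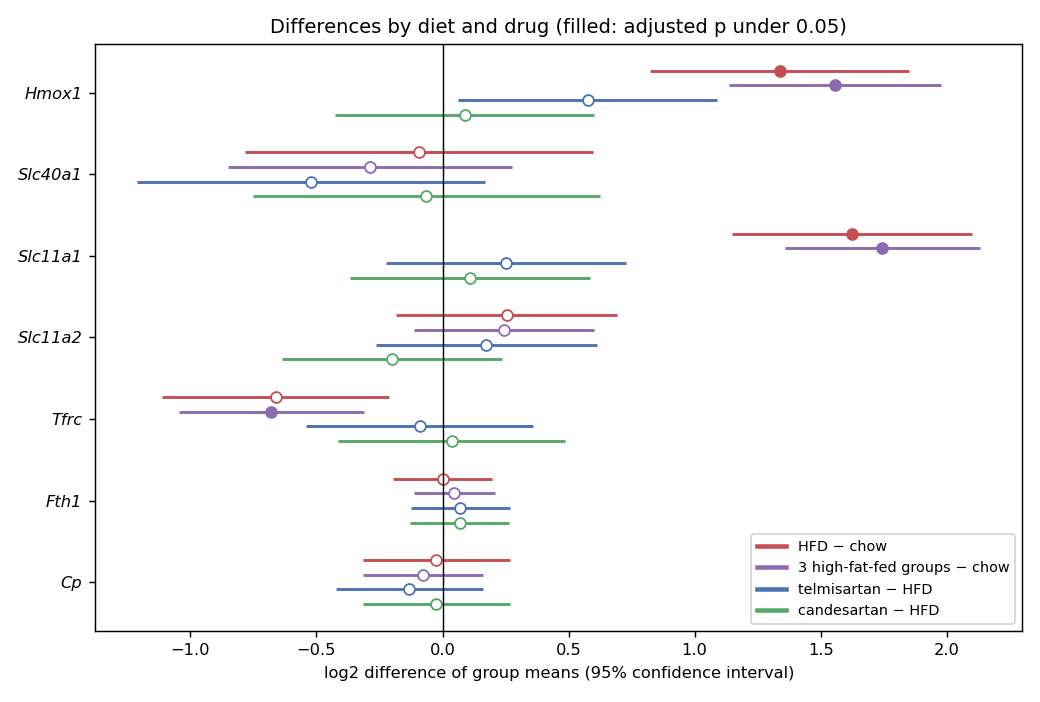
Log2 difference of group means (x axis) for the 7 genes (y axis) in 4 comparisons, with 95% confidence intervals as lines and filled points where the adjusted p was under 0.05. Hmox1 and Slc11a1 are filled for HFD against chow and for the 3 high-fat-fed groups against chow, Tfrc is filled for the latter, and no point is filled for either drug against HFD.

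Each drug was set against untreated HFD, and the drugs against each other at the same dose and time. None of the 7 genes was called in any of these 3 comparisons. The background was 0% of 11232 genes in each, so a call was reached by no gene, and 6.2%, 1.25% and 4.9% of genes had an unadjusted p under 0.05 for telmisartan, candesartan and the pair of drugs. Telmisartan and candesartan share a biphenyl-benzimidazole core, and candesartan carries a tetrazole where telmisartan has a carboxylic acid.

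In telmisartan against HFD the arrays of 4 of the 7 genes did not overlap, against 37.9% of all genes. Hmox1 was 0.58 higher (95% confidence interval 0.061 to 1.09, unadjusted p 0.0323, adjusted p 0.766), with 1043 and 1670 against 1006 and 780. The Hmox1 difference was 0.24 without telmisartan mouse 2 and 0.92 without telmisartan mouse 1, and 0.35 with the signal as deposited. The macrophage mean was 1.24 and 1.93 in the same telmisartan mice against 1.53 in HFD. Slc40a1 was 0.52 lower in the brighter probe set (95% confidence interval -1.21 to 0.17, adjusted p 0.766), and both of its probe sets placed both telmisartan mice below both HFD mice. The Slc40a1 difference was -0.24 without telmisartan mouse 2 and -0.81 without telmisartan mouse 1, and -0.25 with median centring. Slc11a1 differed by 0.25 (95% confidence interval -0.22 to 0.73), Slc11a2 by 0.17, Tfrc by -0.090 and Fth1 by 0.071. Cp differed by -0.13 in its brightest probe set (95% confidence interval -0.42 to 0.16), with arrays that overlapped. All 7 of its probe sets had estimates below 0, from -0.48 to -0.059, with a lowest adjusted p of 0.618 among probe sets. They read the same gene in the same mice, so they are not separate results. Other cell types differed in the same mice: the 7 mesothelial genes had a median of -1.13, with a summed signal of 731 and 2467 against 2425 and 3259 in HFD, and the 7 fibroblast and stromal genes a median of -0.28, with 5 of 7 not overlapping. None of these 14 genes was called, and their part in the differences was not tested.

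In candesartan against HFD the 7 differences lay between -0.20 (Slc11a2) and 0.11 (Slc11a1), and the arrays of 2 of the 7 did not overlap, against 33.4% of all genes. The intervals still allow changes in either direction: that of Hmox1 was -0.43 to 0.60 and that of Slc40a1 was -0.75 to 0.63. For Tfrc the interval was -0.41 to 0.49, and for Fth1 it was -0.13 to 0.26.

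Telmisartan against candesartan tests how far apart the drugs lay, and so also whether their differences from HFD differ. For this 1 pair of compounds 7 genes were compared, with p adjusted over all 11232 genes. Hmox1 was 0.49 higher with telmisartan (95% confidence interval -0.026 to 1, adjusted p 0.924) and Slc11a2 0.38 higher (95% confidence interval -0.062 to 0.81, adjusted p 0.924). Without telmisartan mouse 2 Hmox1 differed by 0.15, and without telmisartan mouse 1 by 0.83. Both had arrays that did not overlap, which held for 2 of the 7 genes and for 32.2% of all genes. Slc40a1 was 0.46 lower (95% confidence interval -1.15 to 0.23, and -0.17 without telmisartan mouse 2), and Slc11a1 0.14 higher (-0.33 to 0.62). Tfrc differed by -0.13 (-0.58 to 0.32), Cp by -0.11 (-0.40 to 0.18) and Fth1 by 0.0026 (-0.19 to 0.20). The intervals of Hmox1, Slc40a1, Slc11a1 and Slc11a2 reach past 1.5-fold, and that of Fth1 was the narrowest of the 7.

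Against chow, both drug groups kept Hmox1 and Slc11a1 above chow, as given beside each gene. In telmisartan against chow 2 of the 7 genes were called, against 8.44% of all genes, and the arrays of 6 did not overlap, against 47.6%. In candesartan against chow 2 were called, against 6.59%, and the arrays of 4 did not overlap, against 53.7%.

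The genes whose pattern over the 8 arrays was most like that of Hmox1 were Clec4b1, Cd53 and Ifi30, with a root mean square difference of 0.134, 0.173 and 0.177 log2 units between the centred profiles. For Slc11a1 they were Lgmn (0.0827), a lysosomal protease, Tyrobp (0.102), a myeloid adaptor, and Clec4a2 (0.103), a myeloid lectin. Cd53 and Tyrobp are on the macrophage list, so the likeness repeats the values given above for that list. The nearest to Slc40a1 were Ackr2 (0.103), Zfp113 (0.134) and Ppp2r3a (0.146), and the nearest to Tfrc were Tcim (0.0837), Enpep (0.103) and Adamts9 (0.103). For Hmox1, 6 genes lay within 0.2, for Slc40a1 27, for Slc11a1 38 and for Tfrc 306. Slc11a2 (nearest Exosc2, Sub1 and Gclm) had 1530 such genes, Cp (nearest Rdh10, Rab33b and Hp1bp3) 4291 and Fth1 (nearest Flii, Rps29 and Tcp1) 4730, so the likeness means little for these flat profiles.

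Around the 9 genes stand 73 other symbols in 9 lists of the same pathways, with Hfe2 and Hjv as names of the same gene. Of these, 61 were tested. In HFD against chow 10 were called (16.4%, against 8.09% of all genes), 5 higher and 5 lower, with a median log2 difference of -0.077 beside -0.013 over all genes. Over the 3 high-fat-fed groups 14 were called (23.0%, against 13.5%), 8 higher and 6 lower. The lists were chosen with earlier results of these data known, so these shares are only a description. Hpx, called in both comparisons, passed the filter on dim probe sets only through the high-fat-fed mice. The 10 calls in HFD fell to 5 with median centring and to 2 with no filter. No pathway gene was called in telmisartan against HFD, candesartan against HFD or telmisartan against candesartan, where limma called none of all genes.

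In heme breakdown and export, 2 of 7 tested genes were called higher in HFD and 3 over the 3 groups, against 5.15% and 7.59% of all genes. None was called lower, though Abcg2 (-0.16) and Slc46a1 (-0.29) had estimates below 0 in HFD. Blvra, which turns biliverdin, the product of heme oxygenase, into bilirubin, rose by 0.48 in HFD (adjusted p 0.0418), from 1201 and 1100 to 1648 and 1565. Flvcr1, a heme exporter, rose by 0.82 (adjusted p 0.0301), from 222 and 244 to 420 and 404. Slc48a1, which carries heme out of the lysosome, was 0.38 higher in HFD (adjusted p 0.108) and rose by 0.47 over the 3 groups (adjusted p 0.02). The call of Blvra in HFD ended in 12 of 21 alternative settings and that of Flvcr1 in 7, among them the loss of any 1 chow or HFD mouse (highest adjusted p 0.265 and 0.189), and Blvra also ended without either candesartan mouse. Over the 3 groups the call of Slc48a1 ended in 9 of 20 settings, among them the loss of any 1 chow, HFD or candesartan mouse. That of Flvcr1 ended without chow mouse 1 (0.78). That of Blvra ended with median centring (0.62, adjusted p 0.0729) and with the signal as deposited (0.39, adjusted p 0.163).

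Scavenging of haemoglobin and heme held calls in both directions. In HFD 1 of 6 genes was called higher and 1 lower, against 5.15% and 2.95% of all genes. Cd163, the haemoglobin scavenger receptor of resident macrophages, was 777 and 1291 in chow, 437 and 222 in HFD, 587 and 475 with telmisartan, and 317 and 379 with candesartan. It fell by 1.68 on the log2 scale in HFD (95% confidence interval -2.45 to -0.92, adjusted p 0.0204). In the same comparison 13 of 14 general macrophage markers were called higher, against 5.15% of all genes. The call of Cd163 ended without chow mouse 2 (adjusted p 0.0831), without HFD mouse 2 (adjusted p 0.141) and with no filter (adjusted p 0.133). Hpx, the plasma protein that binds free heme, was 4.69 and 11 in chow, the former below the floor of 6.69, and 96.8 and 54.8 in HFD, 125 and 279 with telmisartan, and 46.1 and 151 with candesartan. Its rise of 3.08 (adjusted p 0.0211) depends on that floor, was 1.92 with a pseudocount of 16 in its place (adjusted p 0.0527), and Hpx passed the filter on dim probe sets only through the high-fat-fed mice. The call of Hpx also ended with no filter (adjusted p 0.135) and without chow mouse 1 (adjusted p 0.0930), HFD mouse 1 (adjusted p 0.163) or HFD mouse 2 (adjusted p 0.0870). Over the 3 groups Hp, the haemoglobin binder haptoglobin, rose by 0.39 (adjusted p 0.0228) and Lrp1, the receptor that takes up hemopexin with its heme, by 0.54 (adjusted p 0.0498). The call of Hp ended without chow mouse 1, HFD mouse 2 or either candesartan mouse (highest adjusted p 0.132), with no filter (adjusted p 0.115), no intensity trend (adjusted p 0.0793), median centring (adjusted p 0.190) and the signal as deposited (0.20, adjusted p 0.394). That of Lrp1 ended in 14 of 20 alternative settings, among them the loss of any 1 chow, HFD or candesartan mouse. Among the others were median centring, quantile normalization and the signal as deposited (0.35, adjusted p 0.171). The call of Cd163 over the 3 groups ended without chow mouse 2 (-1.01) and with no filter (adjusted p 0.0977).

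Heme synthesis held 2 lower calls among 9 tested genes in HFD, against 2.95% of all genes. Alas2, the erythroid form of the first enzyme, was 755 and 675 in chow and 139 to 249 in the other 6 mice, and fell by 1.94 in HFD (adjusted p 0.00358). Alad, the enzyme of the second step, was 1315 and 1146 in chow and 582 and 570 in HFD, and fell by 1.09 (adjusted p 0.00855). Alad was no longer called without HFD mouse 1 (adjusted p 0.0790) or 2 (adjusted p 0.0890). Alas2 was no longer called with no filter on dim probe sets (adjusted p 0.0609), nor was Alad (adjusted p 0.0664). The red blood cell list has 6 genes on the array, Alas2 among them, and the others did not all move alike. Hbb-b2, a haemoglobin beta chain, read 151 and 119 in chow and 29.9 to 73.7 in the others, and Slc4a1, the anion exchanger of the red cell membrane, 77.9 and 56 against 17.6 to 33. The haemoglobin alpha chain Hba-a2 read 12.6 and 12.7 in chow and 10.4 to 20.6 in the others, Hba-a1 6.25 and 18.4 against 2.48 to 16.3, and Epb42, of the red cell skeleton, 3.35 and 0.995 against 1.3 to 14.5. Of the 6, only Alas2 and Hbb-b2 were bright enough to test, and the part of blood in the fall was not tested. Alas1, the form used outside the erythroid line, differed by -0.31 in HFD (adjusted p 0.169).

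**Figure D4:**
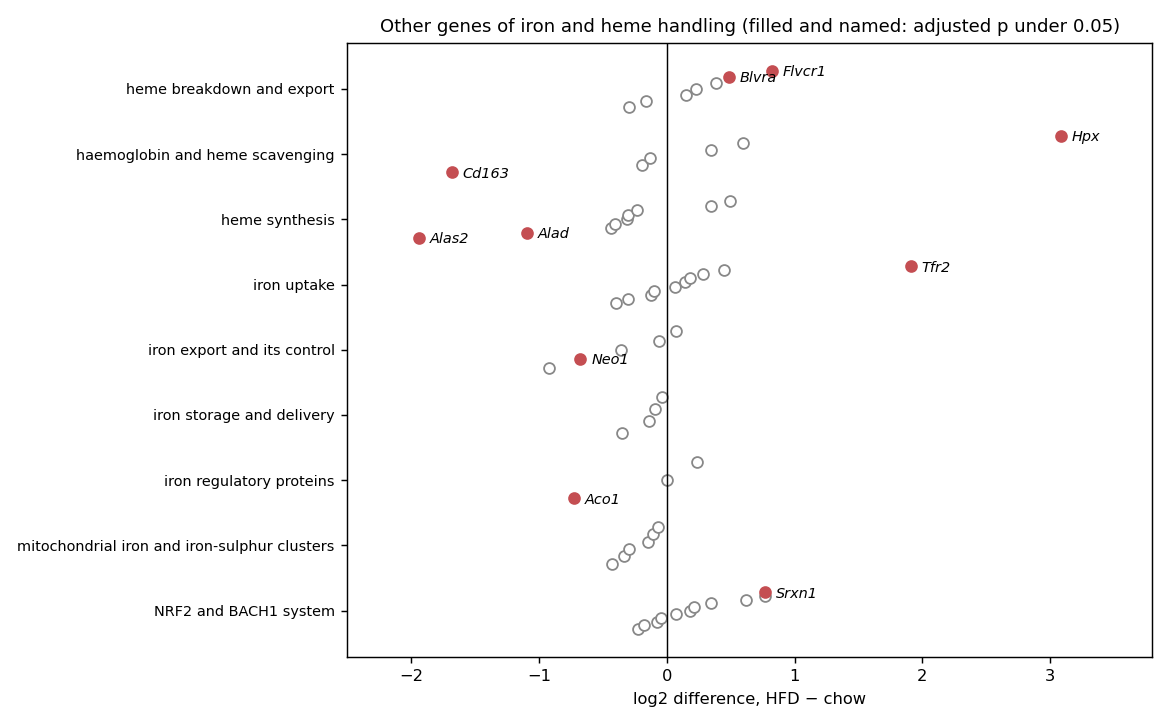
Log2 difference between HFD and chow (x axis) of the 61 tested pathway genes in 9 lists (y axis), with 1 point per gene, filled and named where the adjusted p was under 0.05. The 10 named genes split into 5 higher and 5 lower, and Hpx at 3.08 and Alas2 at -1.94 lie at the 2 ends.

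Iron uptake held 1 call among 10 tested genes in HFD, against 8.09% of all genes. Tfr2, the transferrin receptor known mainly as an iron sensor of liver and erythroid cells, was 214 and 136 in chow, 662 and 620 in HFD, 603 and 530 with telmisartan, and 692 and 599 with candesartan. It rose by 1.91 in HFD (95% confidence interval 1.42 to 2.39, adjusted p 0.00182), and the call held in all 21 alternative settings. Of 5 hepatocyte genes on the array only Alb was bright enough to test, with 177 and 133 in chow and 34.6 to 73.6 in the others. The dim ones were Ahsg, with 9.44 and 12.5 in chow and 4.12 to 28.5 in the others, Ttr, with 0.467 and 14.9 against 1.72 to 13.2, Apoa1, with 0.812 and 0.706 against 1.18 to 11.7, and Fgb, with 0.342 and 0.429 against 0.412 to 1.86. Their part in the rise of Tfr2 was not tested.

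Export and its control held 1 lower call among 5 tested genes in HFD and 2 over the 3 groups, against 2.95% and 5.88% of all genes. Neo1, a co-receptor of the signal that induces hepcidin, fell by 0.68 in HFD (adjusted p 0.0390), from 351 and 309 to 199 and 213. Bmp6, the ligand of that signal and known from vessel cells, differed by -0.93 in HFD (adjusted p 0.0640) and fell by 0.98 over the 3 groups (adjusted p 0.0181). Heph, a ferroxidase like Cp, differed by -0.062 in HFD (adjusted p 0.880). Of the iron regulatory proteins and their control, Aco1, known as IRP1, fell by 0.72 in HFD (adjusted p 0.0303), from 3742 and 3416 to 2177 and 2154, while Ireb2, or IRP2, differed by 0.0036 (adjusted p 0.992) and Fbxl5, which marks Ireb2 for degradation, by 0.24 (adjusted p 0.324). The call of Neo1 in HFD ended in 11 of 21 alternative settings and that of Aco1 in 10, among them for both the loss of any 1 chow, HFD or candesartan mouse (highest adjusted p 0.233 and 0.190). Over the 3 groups the call of Bmp6 ended without chow mouse 2 (-0.72), HFD mouse 2 or candesartan mouse 2. That of Neo1 ended without chow mouse 1, and that of Aco1 without either chow or HFD mouse or candesartan mouse 1. Median centring also ended the calls of Neo1 (adjusted p 0.0817) and Aco1 (adjusted p 0.191). With no filter the calls of Bmp6 and Aco1 ended as well (adjusted p 0.0971 and 0.0890).

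In the lists of iron storage and delivery and of mitochondrial iron, 0 of 4 and 0 of 6 tested genes were called in HFD. The share over all genes was 8.09%. Their smallest p belonged to Pcbp1 (-0.35, adjusted p 0.182), a chaperone that brings iron to ferritin, and Nfs1 (-0.43, adjusted p 0.169), the desulfurase of iron-sulphur cluster assembly. All 6 mitochondrial estimates lay below 0, from -0.43 to -0.071. The NRF2 and BACH1 list holds the factors known to turn Hmox1 on and off and other genes they control. Of its 11 tested genes 1 was called in HFD, against 8.09% of all genes. Srxn1, a sulfiredoxin under NRF2 control, rose by 0.77 (adjusted p 0.0138), from 255 in both chow mice to 404 and 468. Srxn1 was not called without HFD mouse 1 (0.88) or 2 (0.66). It was also not called with median centring (0.67, adjusted p 0.1115) or with the signal as deposited (0.65, adjusted p 0.08045). Bach1, the heme-sensing repressor of Hmox1, differed by 0.62 (adjusted p 0.169), and Nqo1, a widely used NRF2 target, by -0.077 (adjusted p 0.866).

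Among the pathway genes the smallest p in telmisartan against HFD belonged to Alas1 (0.37), Blvrb, a biliverdin reductase (0.39), and Gclc, of glutathione synthesis (-0.34), all at an adjusted p of 0.766. In candesartan against HFD they were Steap3, a ferrireductase of endosomes (-0.54), Aco1 (0.29) and Alad (0.31), all at an adjusted p of 1. In telmisartan against candesartan they were Ireb2 (-0.33), Scara5, a ferritin receptor (-0.55), and Blvrb (0.31), all at an adjusted p of 0.924.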

How the data were processed

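Total RNA of 8 epididymal fat pads was read on 1-colour Affymetrix arrays, 1 per mouse. Each deposited value is the intensity of a probe set on a linear scale. The series' design text names the GeneChip Analysis Suite as the software the authors used, and how they scaled the arrays was not stated. Groups came from the sample titles. Each array was multiplied to bring its 2%-trimmed mean to the average of all 8, values under the 20th percentile (6.69) were raised to it, and values were put on the log2 scale. Probe sets at or above the 50th percentile of mean log2 were kept (22519). The brightest single-symbol probe set stood for a gene, which left 11232 genes. Probe sets were also tested each as a feature. Differences of 4 group means were tested with limma 3.58.1 (R 4.3.3) with an intensity trend, two-sided, 4 residual degrees of freedom and Benjamini-Hochberg adjustment over all genes. The 2 arrays per group limit the precision. Figures were drawn with Python 3.11.15.

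The members and the gene lists were chosen with earlier results of these data known. Named were all members. In each pathway list, genes called in HFD or in the 3 high-fat-fed groups against chow were named too, or else that with the smallest p. Each drug comparison added the 3 with the smallest p, as none was called, and each member its 3 most alike genes. A few further pathway genes (Heph, Fbxl5, Bach1 and Nqo1) were named after their values were seen. Replicate numbers are not said to pair mice, and the gaps between the mice numbered 1 and 2 had correlations of -0.0414 to 0.206 from group to group, so no pairing was used. Alternative settings were median centring, quantile normalization, the signal as deposited, other floors and filters, a pseudocount of 16, other variance models, the mean of all probe sets of a gene, only the groups compared, a replicate block and leaving out each mouse. The fit of HFD against chow was tested on simulated data.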

Additional observations from a re-analysis of the deposited data

Results flagged for a closer look

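Slc11a2, the iron transporter of endosomes, had estimates of opposite sign for the 2 drugs against HFD in its brightest probe set. Neither estimate passed the test (limma, telmisartan 0.17, unadjusted p 0.389, candesartan -0.20, unadjusted p 0.323). The signal of that probe set was 185 and 193 in HFD and 235 and 194 with telmisartan, above both HFD mice by a narrow margin. With candesartan it was 174 and 155, below both HFD mice. The difference between the drugs was 0.38 (limma, adjusted p 0.924), so it did not pass the test, and it was 0.24 without telmisartan mouse 1 and 0.12 with the signal as deposited. The other 2 tested probe sets of Slc11a2 gave 0.029 and -0.050 for the same difference. The cause was not tested.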

How the results depend on the processing

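Of the 2 genes called in HFD against chow, Slc11a1 ran from 1.5 to 1.7 over its 21 alternative settings and was called in 20, and Hmox1 ran from 1.15 to 1.52 and was called in 18. Genes called in HFD against chow numbered 909, and 572 with median centring, 174 with no filter and 165 to 1611 without 1 mouse. In telmisartan against chow they numbered 948, and 2045 with the signal as deposited, 332 with no filter, 198 with only the groups compared and 528 to 1683 without 1 mouse. In candesartan against chow they numbered 740, 164 with no filter and 117 to 1315 without 1 mouse. Over the 3 high-fat-fed groups they numbered 1514, 967 with median centring, 712 with no filter and 832 to 2527 without 1 mouse. The drug comparisons, with 0 calls, gave 4 (telmisartan against HFD), 6 (candesartan against HFD) and 6 (telmisartan against candesartan) with no filter, and the latter 1 with the signal as deposited. Members called in HFD numbered 0 with no filter and 1 to 3 without 1 mouse. Pathway genes called in HFD numbered 5 with median centring, 6 with the signal as deposited, 2 with no filter and 2 to 14 without 1 mouse, and over the 3 groups 8 with median centring, 9 with no filter and 8 to 20 without 1 mouse. The replicate block gave 1280 called genes in HFD, 1220 in telmisartan, 973 in candesartan and 1851 in all 3 groups against chow. Among members, Tfrc in telmisartan against chow was called in 5 of 21 settings, the block among them (adjusted p 0.0390), and Slc40a1 there in 1, the signal as deposited (-0.96, adjusted p 0.0425). With no filter 18193 genes were tested, and the cause of these changes was not tested.

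Median centring moved the median of all genes to -0.11 in HFD against chow, 0.26 in telmisartan and 0.16 in candesartan against HFD, and the signal as deposited to -0.13, -0.24 and 0.029. The share of calls that were higher also differed between scalings. In HFD against chow it was 63.6% as scaled, with 72.6% under median centring and 59.6% as deposited. In telmisartan against chow it was 58.8%, with 88.7% under median centring and 15.9% as deposited. In candesartan against chow it was 68%, with 85.4% under median centring, and over the 3 groups 56.3%, with 74.8% and 34.3%. Small differences changed sign, none of them called. With median centring these were Fth1 in HFD (-0.10), Cp and Tfrc in telmisartan against HFD (0.14 and 0.18), Cp and Slc40a1 in candesartan against HFD (0.13 and 0.089), and Cp between the drugs (0.012) and in either drug against chow (0.014 and 0.0018). With quantile normalization Fth1 was -0.032 in HFD, -0.063 in telmisartan against HFD, -0.12 between the drugs, -0.094 in telmisartan against chow and -0.034 over the 3 groups. As deposited it was -0.12, -0.16, -0.25, -0.28 and -0.14 in the same order and -0.027 in candesartan against chow, where Slc11a2 was -0.043. As deposited, Slc11a2 was also -0.055 in telmisartan against HFD, Cp 0.00043 in candesartan against HFD, and Slc11a1 -0.11 between the drugs. With the mean of all probe sets Slc40a1 was 0.17 in HFD, Cp 0.051 and Tfrc -0.13 in candesartan against HFD, and Tfrc 0.10 between the drugs. Without 1 mouse, sign changes left these ranges. In HFD: Cp -0.053 to 0.0031, Fth1 -0.056 to 0.057, Slc40a1 -0.53 to 0.34. In telmisartan against HFD: Slc11a1 -0.070 to 0.58, Tfrc -0.21 to 0.033. In candesartan against HFD: Cp -0.066 to 0.017, Hmox1 -0.10 to 0.27, Slc11a1 -0.034 to 0.25, Slc40a1 -0.24 to 0.11, Tfrc -0.093 to 0.17. Between the drugs: Cp -0.22 to 0.0013, Fth1 -0.0077 to 0.013, Slc11a1 -0.18 to 0.47, Tfrc -0.26 to 0.0026. In candesartan against chow: Slc11a2 -0.14 to 0.24, Slc40a1 -0.59 to 0.28. Over the 3 groups: Fth1 -0.010 to 0.10, Slc40a1 -0.72 to 0.15. The fit of only the groups compared was not run over the 3 groups, which are all the groups.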
